A study of Mus musculus with 8 samples.

Results

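Chromosome 3 was examined in the 2 ATAC-seq region lists of an H1 pair, triple-knockout and wild-type mouse embryonic stem cells. All regions on the chromosome in either list were taken, 7726 of the 113528 in both lists, of which 4535 of 58039 came from the triple-knockout list and 3191 of 55489 from the wild-type list. A region that overlapped a region of the other list by at least 1 bp was called shared, and otherwise knockout-only or wild-type-only. The chromosome was chosen by its counts of unshared regions, since its knockout-only regions outnumbered its wild-type-only regions more than on any other autosome, so those counts are given as a description. The lists of a second pair of groups, in which the SUMO-conjugating enzyme Ubc9 was depleted or not, held 2964 and 2932 regions on chromosome 3 and took no part in that split.

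The 8 samples form 4 groups of 2 replicates, and the 2 replicates of a group were combined by the authors into 1 list. The H1 triple-KO cells (H1.2-/-H1.3-/-H1.4-/-) lack 3 of the linker histone subtypes, and the labels list no other H1 deletion. They were compared with the H1-WT line, and both lines came from an earlier published study. Ubc9-depleted cells are v6.5 cells with a TET-OFF system that silences Ubc9 when doxycycline is present, and were taken after 72 hours of the drug. The Ubc9-control cells are of the same line, and doxycycline is stated for the depletion alone. Cells of all groups were kept for 4 passages in 2i/LIF, a medium that holds stem cells in the naive state, and 50000 cells went into each reaction, followed by 12 PCR cycles. The sources used here do not say whether the triple-KO line is 1 clone. With 1 list per group there is no spread between replicates, so no difference below has a test, and the intervals are exact 95% binomial intervals that cover counting error only.

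Linker histones bind the DNA where it enters and leaves the nucleosome and help chromatin fold into more compact forms. ATAC-seq reads open chromatin with a transposase that inserts sequencing adapters where DNA is accessible, and a peak marks a stretch with many insertions. Mouse chromosome 3 carries Sox2, a core transcription factor of pluripotent cells, with its distal enhancer cluster. It also carries the miR-302/367 cluster, microRNAs of pluripotent cells, the epidermal differentiation complex, whose genes build the outer layer of skin, and a cluster of replication-dependent histone genes.

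Gene ends, stretches reaching 1000 bp to either side of a protein-coding gene's annotated start and end, held a peak at 11 of 14 naive pluripotency markers in both H1 lists. The defining marker Pou5f1 had none in either list, nor had Esrrb and Dppa3. Fibroblast markers had a gene-end peak at 1 of 9 genes in the knockout list and at 2 of 9 in the wild-type list. Neural markers had one at 3 of 4 and 2 of 4, trophectoderm markers at 2 of 5 and 4 of 5, and primitive endoderm markers at 2 of 5 and 1 of 5. Of all 21887 protein-coding genes, 10279 had a gene-end peak in both H1 lists and 9590 in neither. The knockout list alone had one at 973 genes and the wild-type list alone at 1045. No marker list was tested against these counts. Scores are those of the authors' peak caller, at least 50 in every list, and rank peaks within a list. All positions are mm10 coordinates.

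Promoter windows of chromosome 3 genes were sorted by whether a peak of each H1 list overlapped them by at least 1 bp. Of these windows, 6 are printed 5′ to 3′ with every CpG in capitals. The sequence is that of the window and not of the peak, which can cover a small part of it. The Sprr2a2 peak, for example, spans 92250145 to 92250407 and reaches only the first bases of its window. Each runs from 250 bases before to 50 bases after an annotated start and is taken from RefSeq on GRCm38.p6, which shares its coordinates with mm10. Igsf10, Vav3 and Etv3 held the 3 highest-scoring peaks found in knockout cells alone over such windows, and S100a3 and Sprr2a2 the 2 highest-scoring ones found in wild-type cells alone, with some windows passed over. These were windows at genes with another window open in both lists, and windows whose peak is a piece of a split peak with another piece shared. Sox2 is the example open in both. Igsf10 (chr3:59344207-59344506, minus strand) encodes an immunoglobulin superfamily protein.

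Igsf10: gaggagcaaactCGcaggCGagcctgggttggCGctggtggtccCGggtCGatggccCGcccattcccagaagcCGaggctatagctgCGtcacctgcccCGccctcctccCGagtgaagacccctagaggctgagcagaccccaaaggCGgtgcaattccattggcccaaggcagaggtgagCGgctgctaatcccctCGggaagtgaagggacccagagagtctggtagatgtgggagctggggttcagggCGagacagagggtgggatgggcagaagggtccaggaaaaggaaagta

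Vav3 (chr3:109340433-109340732, plus strand) encodes an exchange factor for small GTPases.

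Vav3: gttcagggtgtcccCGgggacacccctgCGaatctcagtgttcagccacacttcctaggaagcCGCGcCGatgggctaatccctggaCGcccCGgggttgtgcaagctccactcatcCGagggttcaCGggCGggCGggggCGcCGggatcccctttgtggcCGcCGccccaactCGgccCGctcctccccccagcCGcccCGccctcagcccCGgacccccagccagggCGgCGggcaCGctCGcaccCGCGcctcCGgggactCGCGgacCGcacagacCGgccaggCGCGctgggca

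Etv3 (chr3:87525328-87525627, plus strand) encodes a repressor of the ETS family.

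Etv3: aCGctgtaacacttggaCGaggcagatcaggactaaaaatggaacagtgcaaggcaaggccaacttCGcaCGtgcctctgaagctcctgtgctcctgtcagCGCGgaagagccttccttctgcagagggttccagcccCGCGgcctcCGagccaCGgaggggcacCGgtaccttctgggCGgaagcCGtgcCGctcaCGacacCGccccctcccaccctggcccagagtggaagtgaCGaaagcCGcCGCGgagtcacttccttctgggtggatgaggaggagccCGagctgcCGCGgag

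S100a3 (chr3:90586702-90587001, plus strand) encodes a calcium-binding protein of hair, and the window is at one of its annotated starts.

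S100a3: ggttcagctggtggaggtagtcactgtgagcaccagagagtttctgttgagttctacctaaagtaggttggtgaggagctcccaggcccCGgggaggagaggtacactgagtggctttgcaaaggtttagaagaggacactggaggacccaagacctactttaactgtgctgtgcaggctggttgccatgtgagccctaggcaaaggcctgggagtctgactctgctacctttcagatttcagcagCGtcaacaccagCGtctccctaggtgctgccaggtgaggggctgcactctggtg

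Sprr2a2 (chr3:92250397-92250696, plus strand) encodes a small proline-rich protein of the cornified envelope.

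Sprr2a2: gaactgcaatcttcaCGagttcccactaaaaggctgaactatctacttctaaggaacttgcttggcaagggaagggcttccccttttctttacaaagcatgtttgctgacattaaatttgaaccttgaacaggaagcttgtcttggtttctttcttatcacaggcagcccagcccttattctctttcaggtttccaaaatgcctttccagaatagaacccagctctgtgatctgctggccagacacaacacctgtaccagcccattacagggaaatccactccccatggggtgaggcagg

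Sox2 (chr3:34649745-34650044, plus strand) is the comparison.

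Sox2: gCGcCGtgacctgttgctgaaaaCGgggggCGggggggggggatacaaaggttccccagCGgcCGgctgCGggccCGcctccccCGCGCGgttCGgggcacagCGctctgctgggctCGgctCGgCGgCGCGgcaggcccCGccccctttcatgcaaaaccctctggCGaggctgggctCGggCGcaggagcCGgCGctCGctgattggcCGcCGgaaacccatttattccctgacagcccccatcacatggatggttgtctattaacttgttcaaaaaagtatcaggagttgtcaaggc

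The windows held 14 CpG (Igsf10), 33 (Vav3), 23 (Etv3), 3 (S100a3), 1 (Sprr2a2) and 27 (Sox2). Their GC content was 63.0%, 74.3%, 64.3%, 55.7%, 46.7% and 66.3% in that order. Among the wild-type windows passed over, those of Pygo2 and Sgms2 scored higher than S100a3 and held 21 and 12 CpG, so the printed examples do not stand for their class. In the Igsf10 window the peak scored 471 in the knockout list and no other list had one. The Vav3 window scored 288 in the knockout list, none in the wild-type list, 132 in the Ubc9-control list and 171 in the Ubc9-depleted list. At the Etv3 window the values were 245, none, 93.0 and 145, and the gene had a wild-type region elsewhere at its ends. S100a3 scored 245 in the wild-type list and had no peak in the other three. Sprr2a2 scored 130 in the wild-type list and 121 in the Ubc9-control list, with no peak in the other two. Sprr2a2 has near-identical copies beside it, so reads could be assigned to the wrong copy. Sox2 scored 196, 151, 216 and 238 in the knockout, wild-type, Ubc9-control and Ubc9-depleted lists. The summary over all windows is given further on.

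On the whole chromosome, 1944 of the 4535 knockout regions had no partner, 42.9% (41.4 to 44.3%), where 31.4% of the knockout list over all chromosomes had none. Of the 3191 wild-type regions 609 had none, 19.1% (17.7 to 20.5%), against 28.8% of the whole wild-type list. The other autosomes together stood at 30.4% and 29.3%. The first share was the highest and the second the lowest of the 19 autosomes. The next highest knockout-only share was 34.4% on chromosome 1, and the next lowest wild-type-only share was 24.7% on chromosome 16. The chromosome held 8.07% of the autosomal regions of the knockout list and 5.95% of those of the wild-type list. In the lists that did not enter the choice it held 6.50% (Ubc9-control) and 6.38% (Ubc9-depleted). In covered length the knockout regions spanned 1391 kb and the wild-type regions 998 kb. Knockout-only regions had a median score of 102 on chromosome 3 and 92.3 on the other autosomes, and shared regions of the same list 207 and 174. Wild-type-only regions had medians of 90.3 and 90.1, and shared regions of that list 153 and 162.

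The question of which H1 list departed on chromosome 3 was put to the Ubc9-control list, whose cells are of another line, v6.5, with no H1 deletion in the labels. The knockout list overlapped 2437 of its 2932 regions there, 83.1% (81.7 to 84.5%), the highest share of any autosome. The other autosomes ran from 67.1% (chromosome 8) to 79.0% (chromosome 9), with a median of 73.1%. The wild-type list overlapped 2153 of the 2932, 73.4% (71.8 to 75.0%), which ranked 15th of 19 and lay inside the range of the others, 70.5% to 80.4% with a median of 75.3%. By this measure the knockout list stood outside the range of the other autosomes, and the wild-type list was in the lower part of its range. Both shares use the same H1 lists that chose the chromosome, so they describe the departure and are no independent evidence for it.

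**Figure D1:**
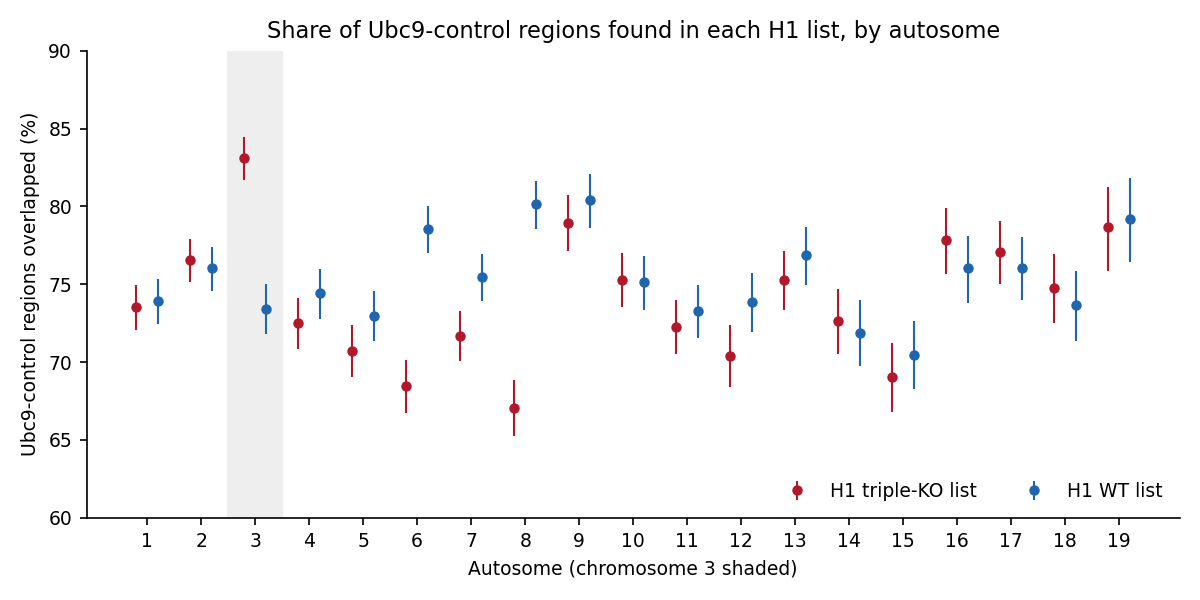
Share of Ubc9-control regions (percent, vertical axis) overlapped by at least 1 bp by the H1 triple-KO list (red) and the H1 WT list (blue) on each autosome (horizontal axis), with exact 95% binomial intervals as bars. On shaded chromosome 3 the knockout point is at 83.1%, above all other points of its colour, while the wild-type point at 73.4% lies among the others; on chromosomes 6 and 8 the knockout points are the lower ones.

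Each Ubc9-control region of chromosome 3 fell in 1 of 4 states. In both H1 lists were 1985, in the knockout list alone 452 or 15.4% (14.1 to 16.8%), in the wild-type list alone 168 or 5.73% (4.92 to 6.63%), and in neither 327 or 11.2%. On the other autosomes the knockout list alone held 8.97%, the wild-type list alone 11.3%, and neither list 15.6%. Of the chromosome 3 regions that the wild-type list missed, the knockout list held 58.0% (54.5 to 61.5%), against 36.5% elsewhere. Of those that the knockout list missed, the wild-type list held 33.9% (29.8 to 38.3%), against 42.0% elsewhere. Chromosomes 6 and 8 showed the reverse order, with 68.5% and 67.1% of their control regions in the knockout list and 78.6% and 80.1% in the wild-type list.

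The Ubc9-depleted list gave a smaller gap. Its 2964 regions on chromosome 3 were overlapped by the knockout list at 57.2% (55.4 to 59.0%), and the next autosome, chromosome 2, stood at 57.0%. The wild-type list overlapped 49.0% (47.2 to 50.8%) and ranked 13th of 19. Among the 1569 control regions also present after Ubc9 depletion, the shares were 92.2% and 84.4%, where the other autosomes together had 84.6% and 84.0%. Among the 1363 that were absent after depletion, the shares were 72.6% and 60.7%, against 57.8% and 64.0%. Both kinds of control region were thus found more often in the knockout list than in the wild-type list on this chromosome.

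In number of regions, the knockout list held 1.55 regions for every Ubc9-control region on chromosome 3, and the other autosomes held 1.05 to 1.39. The wild-type list held 1.088 on chromosome 3, the lowest of the 19, beside 1.093 on chromosome 15. The wild-type list was therefore at the low edge by number of regions and inside the range by overlap with control regions. The Ubc9-depleted list held 1.01 regions per control region on chromosome 3, 14th of 19.

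A larger share of weak control regions than of strong ones separated the H1 lists. Ubc9-control regions of all autosomes were cut into 5 equal bins by their own score. In the lowest bin, with 570 of them on chromosome 3, the knockout list held 57.7% and the wild-type list 42.5%, a gap of 15.3 percentage points. The gaps in the next bins were 18.3, 10.6, 4.97 and 0.632 points. On the other autosomes the wild-type list was the higher one in every bin, and the same gap ran from -3.67 to -0.704 points. The knockout list held a larger share on chromosome 3 than on the other autosomes in every bin, 57.7% against 43.0% in the lowest. The wild-type list held a smaller share there in every bin, 42.5% against 45.6% in the lowest, though its intervals overlapped in each bin. In the top bin both lists held nearly every region on chromosome 3, 98.9% and 98.3%, so presence alone could not separate them there.

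**Figure D2:**
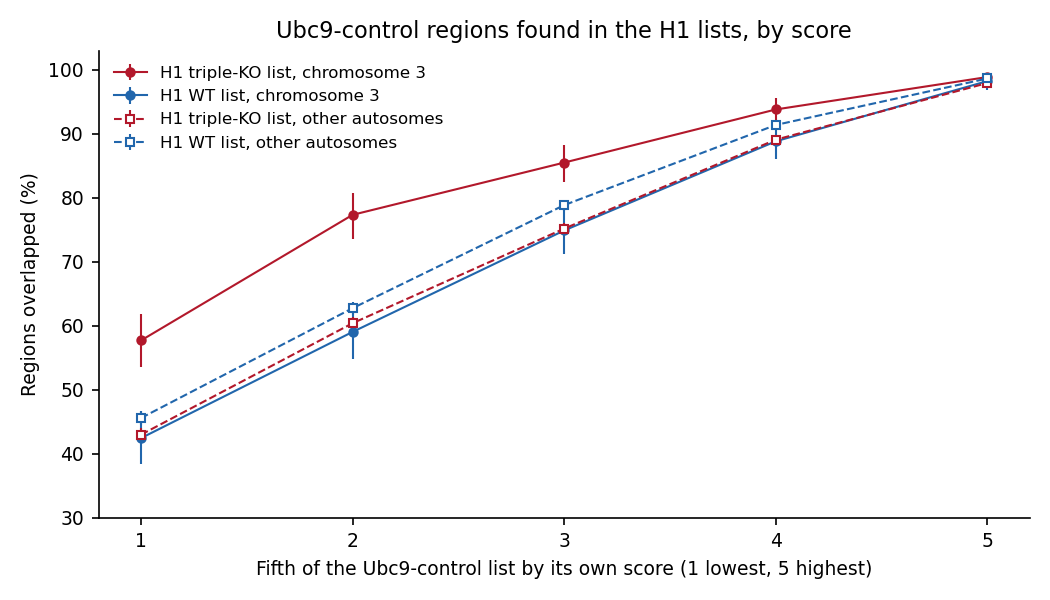
Share of Ubc9-control regions (percent) found in each H1 list, by bin of the control score from 1 (lowest) to 5 (highest), for chromosome 3 (filled symbols, solid lines) and the other autosomes (open symbols, dashed lines), with exact 95% binomial intervals. The knockout curve of chromosome 3 starts at 57.7% and runs above the other 3 curves until they meet in the top bin, and the wild-type curve of chromosome 3 starts at 42.5% and follows the knockout curve of the other autosomes.

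The scores at those strong regions did separate the lists. At the control regions of the top bin, the knockout list's own scores had a median of 444 on chromosome 3 (626 regions) and 361 on the other autosomes, a ratio of 1.23 and the highest of 19. The next highest autosome was chromosome 9 with 402. In the wild-type list the medians were 364 and 360, a ratio of 1.01 and 8th of 19. In the Ubc9-control list they were 354 and 344, and in the Ubc9-depleted list 285 and 328, 18th of 19. Chromosomes 6 and 8 stood in the wild-type list at 411 and 419, and in the knockout list at 356 and 337. A score grows with the reads in a peak and with depth, so each ratio is read within 1 list.

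**Figure D3:**
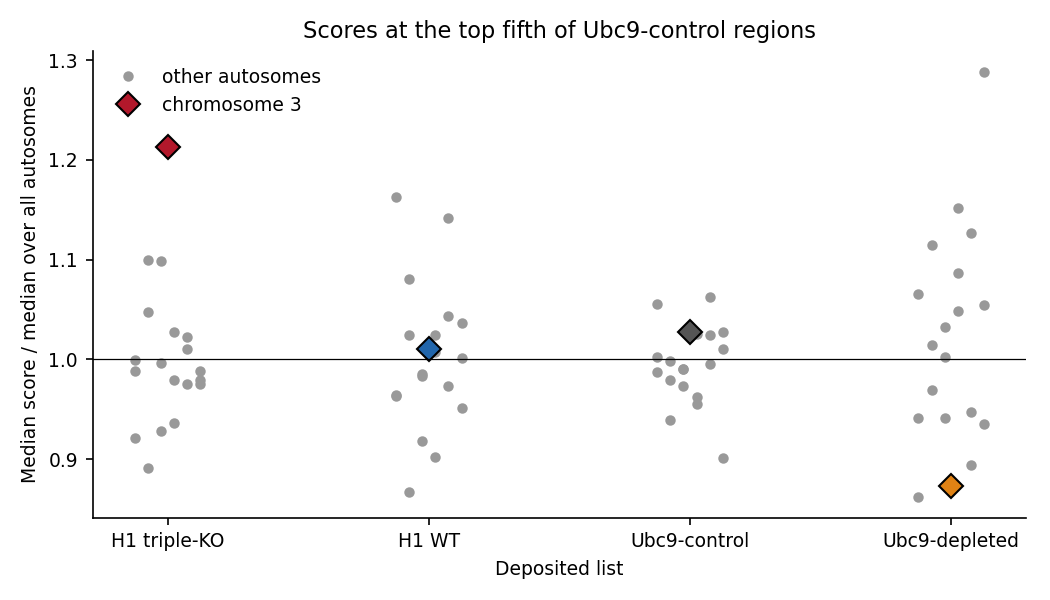
Median peak score at the Ubc9-control regions of the top score bin on each autosome, divided by the median over all autosomes of the same list (vertical axis, a ratio), for the 4 deposited lists (horizontal axis). Diamonds are chromosome 3 and grey points the other autosomes; the knockout diamond is above every grey point of its list, the wild-type and control diamonds lie among theirs, and the depleted diamond is second from the bottom.

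Every window of 10 Mb showed the surplus. In windows of 10 Mb, all 16 held more regions in the knockout list than in the wild-type list, and knockout-only regions per wild-type-only region ran from 1.66 (40 to 50 Mb, 53 against 32) to 7.06 (30 to 40 Mb, 127 against 18). That last window contains Sox2. The Ubc9-control regions were found more often in the knockout list in 16 of 16 windows. The gap was narrowest between 20 and 30 Mb, where 80.3% were in the knockout list and 78.2% in the wild-type list, and widest between 50 and 60 Mb, with 84.8% (78.7 to 89.8%) and 65.7% (58.3 to 72.7%). In windows of 5 Mb the control regions were found more often in the knockout list in 29 of 32, and knockout-only regions were the more numerous in 31 of 32. The exception was 10 to 15 Mb, with 24 knockout-only and 25 wild-type-only regions. All windows come from the same 2 H1 lists and are no replicates of each other.

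**Figure D4:**
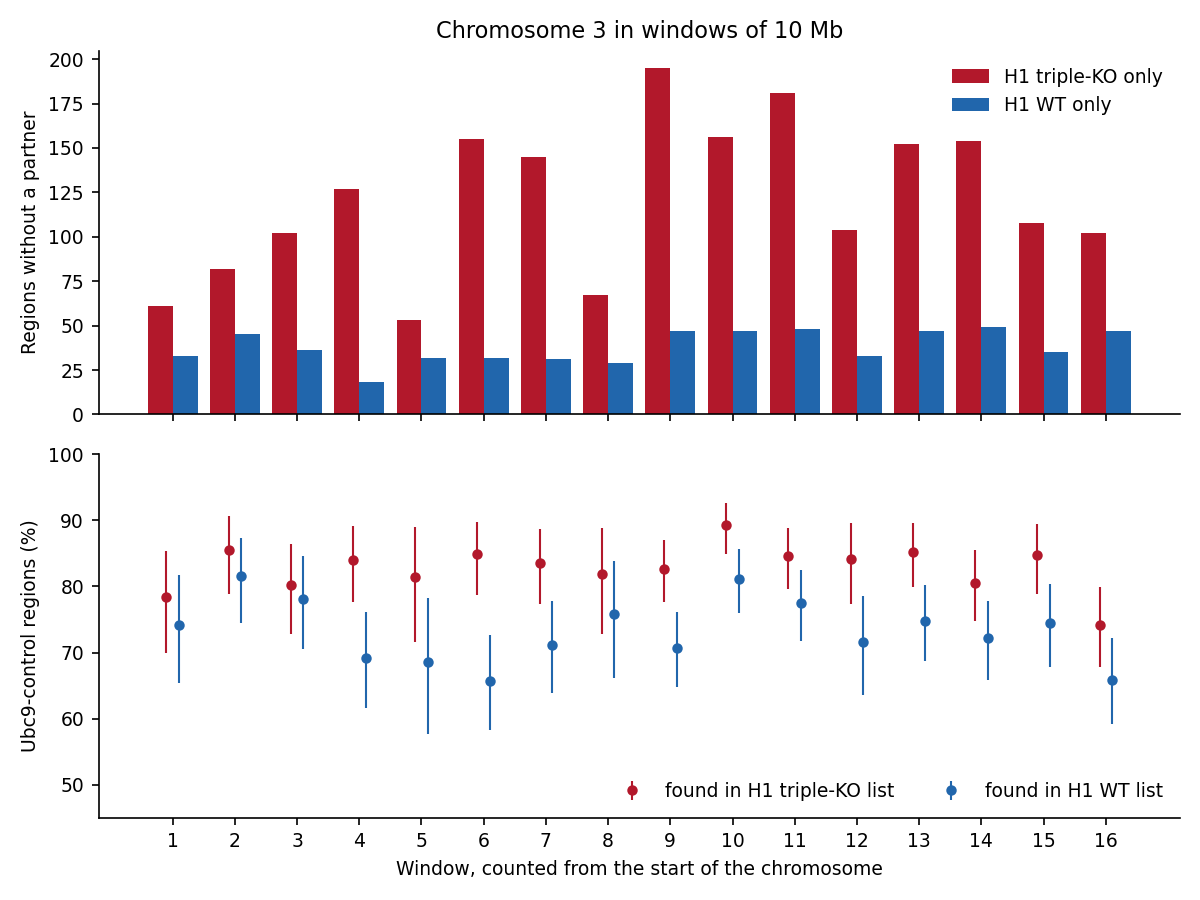
Chromosome 3 in 16 windows of 10 Mb, numbered from the start of the chromosome. The upper panel gives the number of knockout-only (red) and wild-type-only (blue) regions; the lower panel gives the share of Ubc9-control regions (percent) found in each H1 list with exact 95% binomial intervals. The red bar and the red point are the higher ones in every window.

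Few members lay near the threshold of the split. Of 2591 shared knockout regions, 14 met their partner over at most 20 bp and 55 over at most 100 bp. Of the 1944 unshared ones, 11 had a wild-type region less than 20 bp away and 169 less than 500 bp away, and the median gap was 12.8 kb. For the wild-type list 12 of 2582 shared regions met over at most 20 bp, 96 of 609 unshared ones had a knockout region within 500 bp, and the median gap was 7.13 kb. Pieces of 1 peak can appear as separate regions in the H1 lists, where they carry the same peak name and score. Of the unshared regions, 38 of 1944 in the knockout list, 1.95% (1.39 to 2.67%), and 22 of 609 in the wild-type list, 3.61% (2.28 to 5.42%), were pieces of a peak with another piece shared. On the other autosomes such pieces made up 1.92% and 2.26%. On chromosome 3, 40 knockout and 29 wild-type regions were shorter than 50 bp.

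By place, knockout-only regions of chromosome 3 were at gene ends in 9.57% of cases, inside genes in 36.1% and outside genes in 54.3%. On the other autosomes these shares were 10.4%, 42.1% and 47.5%. Shared knockout regions of the chromosome were at gene ends more often, 22.4%. The higher unshared share of the knockout list was present at every kind of place. It was 24.3% of gene-end regions against 14.5% on the other autosomes, 44.9% inside genes against 35.3%, and 47.9% outside genes against 34.4%. The wild-type list was lower at every kind of place, with 8.86% against 16.4%, 18.0% against 32.8%, and 24.1% against 33.2%.

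The unshared classes resembled those of other autosomes in how often the Ubc9-control list held them, and less so in how often both Ubc9 lists did. Of the chromosome 3 knockout-only regions, 28.9% (26.9 to 31.0%) were in the Ubc9-control list, against 29.4% (28.7 to 30.2%) on the other autosomes, and 62.3% against 62.0% were in neither Ubc9 list. Of the wild-type-only regions 37.4% (33.6 to 41.4%) were in the control list, against 40.2% (39.4 to 41.0%). With the 27744 top-scoring regions of each H1 list the chromosome 3 shares in the control list were 61.1% for knockout-only and 64.6% for wild-type-only regions. The other autosomes were not computed under that setting, so it does not bear on the resemblance. With the full lists, the difference of the wild-type-only class between chromosome 3 and the rest was within the counting intervals. Of the knockout-only regions 20.4% (18.6 to 22.3%) were in the Ubc9-depleted list, against 22.7% (22.0 to 23.4%) elsewhere. For wild-type-only regions this share was 19.4% (16.3 to 22.7%) against 22.0% (21.3 to 22.7%). Both Ubc9 lists held 11.6% (10.2 to 13.1%) of knockout-only regions, against 14.1% (13.6 to 14.7%) elsewhere. They held 11.3% (8.92 to 14.1%) of wild-type-only regions, against 15.1% (14.5 to 15.7%). The shares held by both lists were thus lower on chromosome 3, beyond the counting intervals.

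Of the 983 protein-coding genes of chromosome 3, 556 had a gene-end peak in both H1 lists, 83 in the knockout list alone, 19 in the wild-type list alone and 325 in neither. The 83 are 8.44% of the genes (6.78 to 10.4%), where 4.45% of all 21887 genes were in that state. The 19 are 1.93% (1.17 to 3.00%), against 4.77% of all genes. At 2 of the 83 and 1 of the 19 the peak itself was shared and crossed the window's edge in 1 list. Of the 597 genes of the chromosome with a gene-end peak in the Ubc9-control list, 41 or 6.87% (4.97 to 9.20%) were in the knockout-only state and 8 or 1.34% (0.580 to 2.62%) in the wild-type-only state. On the other autosomes 4.50% and 5.48% of such genes were in these states.

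Of the 8 genes with the highest-scoring gene-end peaks in knockout cells alone, 6 had one in the Ubc9-control list too, where 41 of all 83 such genes did, 49.4% (38.2 to 60.6%). Gnb4, a beta subunit of heterotrimeric G proteins (chr3:32578587-32616673), had a gene-end peak of 253 in the knockout list, none in the wild-type list, 178 in the control list and 297 in the depleted list. Gpr89, a Golgi membrane protein, had 227, none, 118 and 107 in the same order. Sohlh2, a transcription factor of germ cells, had 214, none, 138 and 120. At Vav3, Gnb4, Gpr89 and Sohlh2 the wild-type list was thus the one of the 4 that lacked the peak. Pbxip1, a binding partner of PBX proteins, had 226, none, 190 and 206, but its peak was shared and only crossed the window's edge. Ccdc39, needed for the dynein arms of cilia, had 193 in the knockout list, none in the wild-type list, 117 in the control list and none in the depleted list. Clrn1, a membrane protein of sensory hair cells, had 192 in the knockout list and no gene-end peak elsewhere, as Igsf10 did. Around Igsf10 (chr3:59316735-59344438), within 10 kb on each side, the knockout list held 3 regions and each of the other three lists 0.

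Of the 8 genes with the highest-scoring gene-end peaks in wild-type cells alone, 4 had one in the Ubc9-control list, beside 8 of all 19. Ptx3, a secreted pentraxin of innate immunity (chr3:66219887-66225806), had no gene-end peak in the knockout list, 156 in the wild-type list, 179 in the control list and 108 in the depleted list. Kcnc4, a voltage-gated potassium channel, had none, 101, 126 and 130, and Tlr2, a receptor for bacterial lipoproteins, had none, 99.0, 92.6 and 88.1. At Ptx3, Kcnc4 and Tlr2 the knockout list was the one that lacked the peak. Tmem154 with 133, Dennd2d with 129, Casq2, the calcium-binding protein of the cardiac sarcoplasmic reticulum, with 127, and Egf, a growth factor, with 94.8 had a gene-end peak in the wild-type list and in no other list.

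Counted over the gene and 10 kb on each side, 516 of the 983 genes had more knockout-only than wild-type-only regions, 91 had more wild-type-only ones and 376 had equal numbers. Over all genes these states made up 26.7% (more knockout-only) and 21.4% (more wild-type-only). The 8 genes with the largest surplus are long, 123 to 871 kb, and 6 of them had a gene-end peak in both H1 lists. Iqschfp and Schip1, which overlap and count the same regions, held 36 and 34 regions in the knockout list, 21 and 20 in the wild-type list, 16 and 15 in the control list and 5 in the depleted list. St6galnac3, a sialyltransferase, held 33, 17, 20 and 14 in that order. Col25a1, a transmembrane collagen of neurons (chr3:130180358-130599884), held 13 in the knockout list, 3 in the wild-type list, 4 in the control list and 2 in the depleted list. Dclk2, a doublecortin-like kinase, held 16, 7, 10 and 5. Arhgef26, a guanine nucleotide exchange factor, held 13, 5, 3 and 4. Dpyd, the enzyme that breaks down pyrimidines, held 12, 4, 7 and 8, and Lrba, a protein of vesicle trafficking, held 17, 9, 5 and 5. The knockout list held the most regions of the 4 lists at all 8. The rule that picked these genes fixes that it held more than the wild-type list. It also held the most on the whole chromosome, 4535 against 3191 (wild-type), 2932 (control) and 2964 (depleted), so this is not particular to these genes.

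At the other end, Sgms2, a sphingomyelin synthase, held 6 regions in the knockout list, 11 in the wild-type list, 5 in the control list and 4 in the depleted list. Ptx3 held 1, 4, 2 and 1, Casq2 3, 5, 4 and 4, and Spata16, a testis gene, 3, 6, 4 and 6. Amy2a3, a pancreatic amylase with close copies beside it, held 2 regions in the wild-type list and 0 in each of the other three. At these 5 genes the surplus of wild-type-only regions was 4 or fewer.

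**Figure D5:**
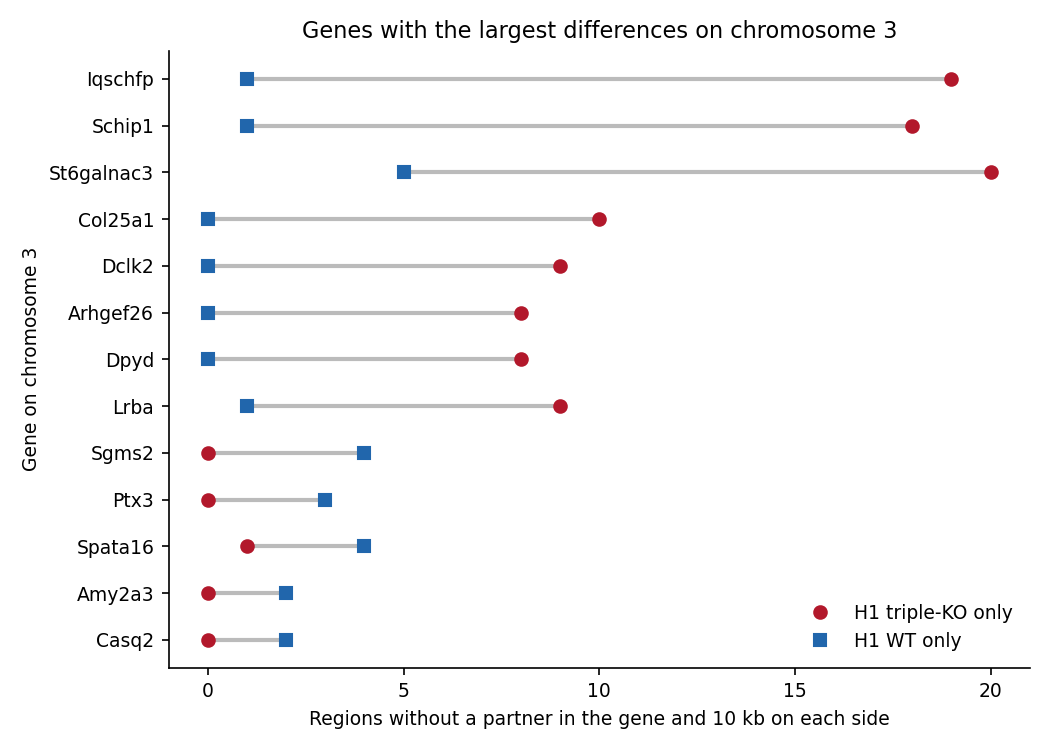
Number of regions without a partner in the other H1 list, over a gene plus 10 kb to either side (horizontal axis), for the 8 genes with the largest surplus of knockout-only regions and the 5 with the largest surplus of wild-type-only regions. Red circles are knockout-only and blue squares wild-type-only regions; the top genes reach 18 to 20 knockout-only regions, and no gene shown has more than 5 wild-type-only ones.

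Gene groups of the chromosome were counted the same way, and all groups are small. The counts stand beside those of all 983 genes, of which 83 had a knockout-only and 19 a wild-type-only gene-end peak, and 516 had more knockout-only and 91 more wild-type-only regions. No group is called different from the chromosome. Of 20 stem cell and signalling genes, 13 had a gene-end peak in both H1 lists, 3 in the knockout list alone (Phc3, a Polycomb protein, Mecom and the Wnt ligand Wnt2b) and 1 in the wild-type list alone (Bcl9, a cofactor of beta-catenin). Phc3 scored 153 in the knockout list, none in the wild-type list, and had a gene-end peak in both Ubc9 lists. By regions, 12 of the 20 had more knockout-only and 2 more wild-type-only regions. Lef1, a transcription factor of the Wnt pathway, had no gene-end peak in either H1 list, and 7 regions in the knockout list, 3 in the wild-type list, 8 in the control list and 6 in the depleted list. Smad9, a BMP signal transducer, had 6, 3, 6 and 3. At the ends of both genes the control list alone had a peak.

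Of 23 neural genes, 13 had a gene-end peak in both H1 lists, 4 in the knockout list alone and 0 in the wild-type list alone, beside 83 and 19 of 983 for the chromosome. Among them were Npy2r, a neuropeptide Y receptor, with 136, Nes, an intermediate filament protein of neural progenitors, with 97.5, and the synaptic adhesion protein Nlgn1 with 63.8. Nlgn1 had gene-end peaks in both Ubc9 lists, Nes in the depleted list, and Npy2r in neither. The group held 104 knockout-only and 28 wild-type-only regions, with 14 genes on the knockout side and 1 on the other, and Iqschfp, Schip1 and St6galnac3 supplied most of the knockout-only ones, those of the first pair being counted at both genes. Its median difference was 1 region per gene, as it was over all 983 genes. Of 14 mesoderm, endoderm and lineage genes that matched (Prrx1 did not), 1 had a knockout-only gene-end peak (Mecom) and 3 a wild-type-only one (Egf, Tbx15 and Hnf4g). By regions 9 of the 14 had more knockout-only ones.

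Housekeeping genes were open in both lists at 18 of 20 members, with Gstm5 in the knockout list alone and 0 in the wild-type list alone. By regions 10 of the 20 had more knockout-only ones, near the 516 of 983 over the chromosome, and 0 had more wild-type-only ones. The 11 histone genes were open at their ends in all 4 lists, with 4 having more knockout-only and 4 more wild-type-only regions. All of these genes but H2az1 (chr3:137864487-137866922) lie side by side in 1 cluster, where neighbours count the same regions. In the epidermal differentiation complex 45 of 59 members had no gene-end peak in either H1 list, 10 had one in both, 2 in the knockout list alone (Crct1 with 142 and Sprr2b with 139) and 2 in the wild-type list alone (Sprr2a2 and Sprr2a3). Of its genes, 12 had more knockout-only regions and 2 more wild-type-only ones. Of 5 guanylate-binding protein genes 2, and of 6 alcohol dehydrogenase genes 3, had more knockout-only regions and 0 more wild-type-only ones. None of the 8 Tdpoz genes had a gene-end peak in an H1 list, and Tdpoz4 had 1 knockout-only region nearby.

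Around Sox2, a stretch chosen after its values were seen, the peaks themselves were mostly shared. From 10 kb before to 120 kb after the gene (chr3:34639995-34772461), the knockout list held 11 regions, of which 3 had no partner, and the wild-type list 9, of which 1 had none. The Ubc9-control and Ubc9-depleted lists held 9 each. The highest-scoring region lay 95.4 kb downstream of the gene start in both H1 lists and in the control list, with 541 in the knockout list, 345 in the wild-type list and 392 in the control list. In the depleted list it scored 256, and the highest was a region 111 kb downstream with 265. The 3 knockout-only regions here scored 115, 63.7 and 59.5, beside a median of 102 for all knockout-only regions of the chromosome. The first of them, centred at -9.10 kb from the gene start, was also in both Ubc9 lists.

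Most microRNA hairpins of the chromosome had no peak beside them. Of 45 hairpins, 10 had a peak within 1000 bp in both lists, 2 in the knockout list alone, 2 in the wild-type list alone and 31 in neither. The 5 hairpins of the miR-302/367 cluster (chr3:127545228-127545807, plus strand) shared 1 peak just upstream of them in every list. Mature sequences of the cluster from RefSeq are printed with the seed, bases 2 to 8, in capitals, because these 5 are among the 10 hairpins with a peak in both lists.

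mmu-miR-302b-3p: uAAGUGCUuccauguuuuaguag
mmu-miR-302d-3p: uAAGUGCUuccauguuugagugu
mmu-miR-302c-3p: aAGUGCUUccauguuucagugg
mmu-miR-302a-5p: aCUUAAACgugguuguacuugc
mmu-miR-367-3p: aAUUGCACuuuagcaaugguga

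The 3p strands of miR-302b and miR-302d share the seed AAGUGCU, the listed 3p strand of miR-302c begins 1 base further along it, and miR-367 has another seed. The peak beside the cluster scored 733 in the knockout list (chr3:127544633-127545210), 406 in the wild-type list, 400 in the control list and 201 in the depleted list. It ended 17 bp before the first hairpin in the knockout list, 54 bp in the wild-type list, 3 bp in the control list and 61 bp in the depleted list. Mir137, whose microRNA acts in neurons, had a peak of 69.6 in the wild-type list, none in the knockout list, 117 in the control list and 105 in the depleted list. Mir1895 had 66.9 in the knockout list, none in the wild-type list, 136 in the control list and 113 in the depleted list. Mir1905 (76.2, knockout list) and Mir1897 (53.2, wild-type list) were the remaining pair.

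There were 1009 promoter windows, which cover 809 of the 983 genes. Of these windows, 481 overlapped a peak in both H1 lists and 445 in neither. A peak in the knockout list alone overlapped 68, 6.74% (5.27 to 8.47%), and one in the wild-type list alone 15, 1.49% (0.834 to 2.44%). Of the 19076 windows on the other autosomes, these states made up 3.48% and 4.71%. CpG density fell from windows open in both lists through knockout-only and wild-type-only ones to those open in neither. The median ratio of observed to expected CpG was 0.761 in windows open in both, 0.620 in knockout-only ones, 0.435 in wild-type-only ones and 0.265 in windows open in neither. The quartiles of the knockout-only windows ran from 0.425 to 0.796 and those of the windows open in both from 0.589 to 0.923, so the groups overlapped. On the other autosomes the 664 knockout-only windows had a median of 0.766 and the 899 wild-type-only ones 0.718, above those of chromosome 3. Median GC content on chromosome 3 was 61.7%, 58.7%, 55.7% and 48.0% in the order given.

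Short motifs were searched on both strands of the chromosome 3 windows. The GC box GGGCGG was in 69.9% (65.5 to 73.9%) of windows open in both lists, 51.5% (39.0 to 63.8%) of knockout-only ones, 46.7% of wild-type-only ones and 20.9% of those open in neither, where 46.7% of all the chromosome's windows held it. The CCAAT box CCAAT was in 43.0%, 27.9%, 40.0% and 31.7%, with 37.0% over all. The TATA box TATAAA was in 7.48%, 7.35%, 6.67% and 24.5%, with 15.0% over all, and the octamer ATGCAAAT in 1.66%, 1.47%, 0% and 2.70%, with 2.08% over all. Of the printed windows, those of Igsf10 and Sox2 hold both a GC box and a CCAAT box, and those of Vav3 and Etv3 a GC box. The 0 of 15 wild-type-only windows with the octamer allows a share of up to 21.8% by the exact interval. A match is a run of letters in the window and was not tested as a binding site.

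The highest-scoring single regions without a partner were mostly pieces of split peaks. By score the knockout list was led by regions at or near Wars2 (655), Mtfr1 (607), Ect2 (587), Unc5c (573) and Nceh1 (533), and in each case another piece of the same peak was shared with the wild-type list. The same held in the wild-type list for the regions at or near Ythdf3 (634), Frem2 (382), Sgms2 (371) and Pdlim5 (299), 4 of the top 5. The regions named next, which are no such pieces, were picked after this was seen.

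In the knockout list the strongest of them lay 155 kb from Car2, a carbonic anhydrase (chr3:15055516-15056206, 493), and was in both Ubc9 lists. The second was the Igsf10 peak (chr3:59343984-59344640, 471), in neither Ubc9 list. The third, 11.2 kb from Egf (chr3:129665638-129666375, 413), was in the depleted list, the next, 18.0 kb from the neuronal adhesion gene Negr1 (379), in neither, and the last, at the neuropeptide receptor gene Qrfpr (374), in both. In the wild-type list the strongest lay 85.7 kb from Plch1, a phospholipase C (chr3:63609887-63610467, 359), and was in the control list. The S100a3 peak (chr3:90586914-90587401, 245) was in neither Ubc9 list. Regions 1320 kb from Sis (241), at Mov10, an RNA helicase gene (236), and at Dnajc5b (234) were each in the control list and not in the depleted list. Each of the 2 lists thus held strong unshared regions that the control list also held.

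Unshared regions that follow each other in a list were joined into runs. The 1944 formed 1126 runs, of which 40 had 5 or more regions in a row, and the 609 wild-type-only regions formed 509 runs, of which 1 did. Runs lengthen with the share of unshared regions, so their number adds nothing to that share and they only serve to locate stretches. The longest run held 11 regions over 183 kb around Clrn1 (chr3:58778952-58961544), of which 2 were in the Ubc9-control list and 0 in the depleted list. The second held 10 regions over 206 kb in a gene-dense stretch that includes Arhgef11 and Prcc, of which 3 were in the control list and 6 in the depleted list. The third held 9 regions over 495 kb around Kcnmb2, a potassium channel subunit. The longest wild-type-only run held 6 regions over 710 kb with no protein-coding gene in it. The sources used here give no karyotype and no read count per chromosome for either H1 line. The cause of the surplus on chromosome 3 was not tested, and with 1 list per group the genotype, the line and the libraries cannot be told apart.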

How the data were processed

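The 4 deposited region lists, 1 for each group and made from both replicates, were used. Per the submitters' processing notes the tools named are MACS 1.4.2-1, Bowtie2, Picard and CASAVA 1.8.2, and the build is mm10. Their settings, how replicates were combined and whether reads were shifted for the transposase are not given in the sources used here. The authors deposited a score for each region, read as minus 10 times log10 of p and used within a list only. The scores of the H1 and Ubc9 lists differ in form, so the pairs may have been combined differently. Read depth is unknown, a deeper library gives more peaks, and no limit on detection can be computed.

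Overlaps, exact (Clopper-Pearson) 95% intervals and figures were computed with python 3.11.15, numpy 2.4.6, pandas 2.3.3, scipy 1.17.1 and matplotlib 3.10.9, and the counting steps were tested on simulated data. Genes were the 983 protein-coding genes of chromosome 3 in a RefSeq table for GRCm38.p6. That table has no strand, so a gene end means 1000 bp on each side of either annotated end. RefSeq promoter windows of 300 bp covered 82.3% of those genes. The members, gene lists and windows were chosen with earlier results of these data known. Genes were named by rule: the 8 with the highest-scoring gene-end peak in each list alone, the 8 with the largest surplus and the 5 with the smallest surplus of knockout-only regions, up to 5 members of each gene list whose state differed, the 5 highest-scoring unshared regions of each list and the 3 longest runs. Other names, among them the Sox2 neighbourhood, the microRNAs and the printed windows, were chosen after values were seen. Alternatives varied the overlap, score minimum, merging, width, list size, reference list and gene window, and, added after seeing the data, joined pieces of split peaks. The sex chromosomes entered only totals over all chromosomes, and peak sequences were not analysed here. Some genes that the naming rule picks are not reported here.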

Additional observations from a re-analysis of the deposited data

How the results depend on the processing

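Of 72 recomputed values for chromosome 3, 51 stayed within their counting interval or within 1.5 times the main count, and 21 moved. A reversal was defined for the ratio alone, as a crossing of 1, and 0 values had it. The counts and shares could not receive that label. With scores of at least 100 in all 4 lists there were 399 wild-type-only regions, a ratio of 3.54, 75.9% of control regions in the wild-type list, and 24.5% of knockout-only regions in the control list. With the minimum on the counted list alone there were 999 and 253 unshared regions and a ratio of 3.95. With the 27744 top-scoring regions of each H1 list there were 962 and 308, 59.0% and 47.6% of control regions were in the knockout and wild-type lists, and 61.1% of knockout-only and 64.6% of wild-type-only regions were in the control list. With the Ubc9-depleted list as reference the shares were 57.2%, 49.0%, 20.4% and 19.4% in that order, and with control regions also present after depletion 92.2% and 84.4%. Against the depleted list the intervals of the knockout-only class (18.6 to 22.3%) and the wild-type-only class (16.3 to 22.7%) overlapped, so their order is not resolved. Against the control list the knockout-only class had the lower share, 28.9% against 37.4%. With 1000 bp around gene starts alone, 52 genes were knockout-only and 12 wild-type-only. Under each of these settings that gives a share, the knockout list's overlap with the reference ranked 1st of 19 autosomes. Joining the pieces of split peaks, an alternative chosen after seeing the data, gave 1882 and 577 unshared regions, a ratio of 3.26, and the same shares of control regions in the H1 lists. The cause of the moves was not tested. Without chromosomes 6 and 8 the ratio on the other autosomes was 1.22 in place of 1.06. No paired analysis was possible because each list holds both replicates of its group, and no replicate could be left out for the same reason.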
